A study of Mus musculus with 14 samples.

Results

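Neuropeptide precursors, granins and the enzymes that process them form a set of 32 genes, taken by symbol from the deposited count table of mouse brain. Of the 32 symbols, 31 are among the 13866 genes listed there. Pmch, the precursor of melanin-concentrating hormone, is not listed. The 31 genes are 20 peptide precursors, 7 granins and 4 processing enzymes, and 30 of them passed the filter on low counts. Pcsk1n, a granin-like inhibitor of a prohormone convertase, did not pass, with 0 to 9 counts per library. The brains came from mice of 19 days in 4 groups, with 1 library per mouse. WT + PBS (3 libraries) and WT + CBE (3) were C57BL/6JOlaHsd mice. MyTrMaSt + PBS (3) and MyTrMaSt + CBE (5) were MyTrMaSt null mice, which lack the innate immune adaptors Myd88, Trif, Mavs and Tmem173 (STING) in all cells. CBE (conduritol B-epoxide) binds covalently to the lysosomal glucocerebrosidase GCase, whose gene is mutated in Gaucher disease, and switches it off. CBE was injected i.p. each day at 100 mg/kg from the second postnatal week as a chemical model of the neuronopathic disease. The PBS mice received the vehicle. The CBE model acts in every cell type, and the change of a gene in brain homogenate cannot be placed in 1 cell type.

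Neuropeptides are cut from larger precursors inside dense-core vesicles, which neurons release on strong or repeated firing. The granins are acidic proteins that help to form these vesicles and are themselves cut into peptides. Prohormone convertases cut the precursors at paired basic residues, carboxypeptidase E removes the exposed basic residues, and the amidating enzyme PAM completes many peptides. In the brain each precursor has its own map: somatostatin (Sst), neuropeptide Y (Npy) and cholecystokinin (Cck) are made by many cortical and hippocampal neurons, enkephalin (Penk) and dynorphin (Pdyn) by striatal neurons, and orexin (Hcrt), oxytocin (Oxt) and vasopressin (Avp) by small groups of hypothalamic neurons.

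Levels are given as CPM (counts scaled to library size, with TMM factors). MARSseq tags only the 3' end of each transcript, and levels are compared here between libraries and not between genes. The libraries held 1290616 to 3704691 counts, of which the members took 0.790% to 1.28%. Comparisons of library pairs within a group gave a chi-square over genes, divided by its degrees of freedom, of 18.1 to 20.2 where WT + PBS replicate 1 was involved and of 2.31 to 7.20 elsewhere, so no library was counted as a repeat of another. In WT + PBS replicate 1 there were 5 members at least 2-fold above the mean of the other 2 libraries (10.3% of all genes) and 3 at least 2-fold below it (20% of all genes). WT + PBS replicate 1 also had the fewest counts, and across 11196 genes its deviation from its group rose with the GC content of the gene (Spearman's rho 0.503). The other 13 libraries had -0.443 to 0.286, the lowest being the other WT + PBS libraries, whose deviations mirror it since they are taken within the group. Xist was at 0 in the 3 WT + PBS libraries and in MyTrMaSt + CBE replicate 4, at 0.468 CPM in WT + CBE replicate 2 and at 7.02 to 18.0 CPM in the others. Myd88 counts were 19 to 36 and 45 to 71 in the WT groups given PBS and CBE, and 9 to 17 and 10 to 22 in the null groups, while Ticam1 (Trif), Mavs and Tmem173 counts overlapped between the genotypes or were higher in MyTrMaSt + PBS than in WT + PBS. A 3' end count does not check a deletion further upstream.

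Sequence of the promoters was read from RefSeq (GRCm38.p6, the mm10 build), which held 27 of the 32 members. The palindromic cAMP response element TGACGTCA, the site at which CREB-type factors are known to bind in activity-regulated genes, was searched on both strands in the 250 bases before the gene start. It was present for 5 members, Sst, Scg2, Chgb, Pcsk1 and Cartpt, while 1.55% of all 32851 promoters hold it. Its half-site TGACG, which the whole element contains, was present on either strand for 15 members and in 17.8% of all promoters. Members are counted by gene (30 promoters for the 27 members) and the shares by promoter, so they are not like for like. Members without a promoter there were not searched. The 5 stretches are shown because the whole element is the letter string that these members share, one that the choice of members did not use. Each is written 5′ to 3′ on the strand of the gene, with the element in capitals.
Sst, chr16:23890874-23890903, minus strand, element 48 bases before the start: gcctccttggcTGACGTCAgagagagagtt
Scg2, chr1:79440076-79440105, minus strand, element 68 bases before the start: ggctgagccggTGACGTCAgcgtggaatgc
Chgb, chr2:132781559-132781588, plus strand, element 72 bases before the start: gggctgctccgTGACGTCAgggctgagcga
Pcsk1, chr13:75089768-75089797, plus strand, element 78 bases before the start: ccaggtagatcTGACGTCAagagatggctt
Cartpt, chr13:99900777-99900806, minus strand, element 112 bases before the start: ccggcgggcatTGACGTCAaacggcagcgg
A match is a string of letters and was not tested as a binding site. The starts are those of RefSeq. In GENCODE M21, the annotation used for overlaps of genes, 4 of the 5 stretches (all but that of Pcsk1) lie inside the span of the gene, whose first listed start is further upstream.

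The first comparison was WT + CBE versus WT + PBS, which asks what loss of GCase activity does in mice with intact innate adaptors. Of the 30 members, 3 passed an adjusted p of 0.05, and all 3 are precursors that fell, Hcrt, Cck and Sst. The share, over all 11852 genes tested, that fell by this rule was 3.89%, and 10.6% passed in either direction. None of the 30 reached a 2-fold change with edgeR, against 6.4% of all genes, although 6 had an unadjusted p under 0.05 (24.7% of all genes), 5 of them lower (12.6% of all genes). DESeq2 called 1 member at 2-fold (Hcrt, with 6.78% of all genes) and limma voom called 0 (7.13%). The fitted change was below 0 for 22 of the 30 members (51.8% of all genes), with a median log2 fold change of -0.22 over the members and -0.02 over all genes.

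Hcrt encodes the orexins, the wake-promoting peptides of lateral hypothalamic neurons. Its level was 51.3, 29.8 and 24.0 CPM in WT + PBS and 13.6, 18.2 and 19.2 CPM in WT + CBE. Every WT + CBE library was below every WT + PBS library, and the highest value came from WT + PBS replicate 1. The log2 fold change was -0.998 ± 0.26 (SE, edgeR adjusted p = 0.0201), and without WT + PBS replicate 1 it was -0.69 ± 0.22 (edgeR adjusted p = 0.0402). Hcrt did not pass without WT + CBE replicate 1 (-0.82, edgeR adjusted p = 0.115) or replicate 2 (-1.06, edgeR adjusted p = 0.0554).

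Cck encodes cholecystokinin, which cortical and hippocampal neurons make in large amounts. Its level was 1487, 1105 and 1120 CPM in WT + PBS and 873, 854 and 561 CPM in WT + CBE. The groups did not overlap, and WT + CBE replicate 3 was the lowest of all 14 libraries. The log2 fold change was -0.69 ± 0.18 (SE, edgeR adjusted p = 0.0212), and without WT + CBE replicate 3 it was -0.51, which did not pass (edgeR adjusted p = 0.123).

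Sst encodes somatostatin, the inhibitory peptide of a class of GABAergic interneurons. Its level was 1022, 443 and 513 CPM in WT + PBS and 365, 386 and 343 CPM in WT + CBE. The groups did not overlap, but 1 WT + PBS library was far above the other two. The log2 fold change was -0.85 ± 0.26 (SE, edgeR adjusted p = 0.0461), and without WT + PBS replicate 1 it was -0.38 ± 0.18, which did not pass (edgeR adjusted p = 0.200). The Sst call was also lost on leaving out any WT + CBE library, any MyTrMaSt + PBS library or replicate 1, 3 or 5 of MyTrMaSt + CBE, with log2 fold changes of -0.88 to -0.80 and edgeR adjusted p of 0.0559 to 0.150. With limma voom Sst was at -0.43 (limma adjusted p = 0.0553).

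The calls of Hcrt, Cck and Sst were all lost with the Xist level as a covariate (edgeR adjusted p = 0.259, 0.357 and 0.573) and with only the 6 WT libraries in the fit (edgeR adjusted p = 0.158, 0.156 and 0.202). The slope of that covariate rests largely on WT + CBE replicate 2 and MyTrMaSt + CBE replicate 4, where Xist departs from the rest of the group. The other 17 precursors did not pass in WT, and their log2 fold changes ran from -0.93 (Oxt) to 0.54 (Nmb). Npy, which encodes neuropeptide Y, had a level of 414, 254 and 285 CPM in WT + PBS and 201, 231 and 233 CPM in WT + CBE. These groups did not overlap, but the log2 fold change of -0.51 ± 0.23 did not pass (edgeR adjusted p = 0.182) and was -0.27 without WT + PBS replicate 1. Pomc, the precursor of melanocortins and beta-endorphin, was at 9.64 to 26.1 CPM in WT + PBS and at 5.40 to 10.1 CPM in WT + CBE (log2 fold change -0.75 ± 0.38, edgeR adjusted p = 0.245, and -0.30 without WT + PBS replicate 1). The groups of Pomc overlapped.

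None of the 6 granins tested passed in WT. Chga encodes chromogranin A, the best known marker of dense-core vesicles. Its level was 393, 358 and 352 CPM in WT + PBS and 226, 277 and 210 CPM in WT + CBE, groups that did not overlap. The log2 fold change was -0.63 ± 0.25 (edgeR adjusted p = 0.118). Without MyTrMaSt + CBE replicate 4, a library of the other genotype that enters the shared estimate of the spread, the same log2 fold change of -0.63 had an SE of 0.13 and passed (edgeR adjusted p = 0.00471). Chgb, which encodes chromogranin B, had a level of 825, 735 and 757 CPM in WT + PBS and 701, 709 and 754 CPM in WT + CBE (log2 fold change -0.10 ± 0.15, edgeR adjusted p = 0.745). Scg3, a granin that binds vesicle membranes, was at 63.0 CPM in WT + PBS replicate 1 and at 343 and 286 CPM in the other two, and its log2 fold change of 0.65 ± 0.34 was 0.23 ± 0.13 without that library, neither of which passed (edgeR adjusted p = 0.255 and 0.291).

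None of the 4 enzymes passed either. Cpe, which encodes carboxypeptidase E, was at 1561, 2540 and 2657 CPM in WT + PBS and at 2795, 3302 and 2932 CPM in WT + CBE. The WT + CBE libraries were all higher, with a log2 fold change of 0.42 ± 0.17 that did not pass (edgeR adjusted p = 0.128). Pcsk2, a prohormone convertase of mature neurons, was at 61.2, 105 and 137 CPM in WT + PBS and at 74.8, 90.3 and 93.7 CPM in WT + CBE, and the groups overlapped. In all, 8 of the 30 members had groups that did not overlap (27.9% of all genes): Sst, Npy, Cck, Adcyap1, Hcrt, Scg2 and Chga were lower with CBE (12.8% of all genes) and Cpe higher.

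**Figure D1:**
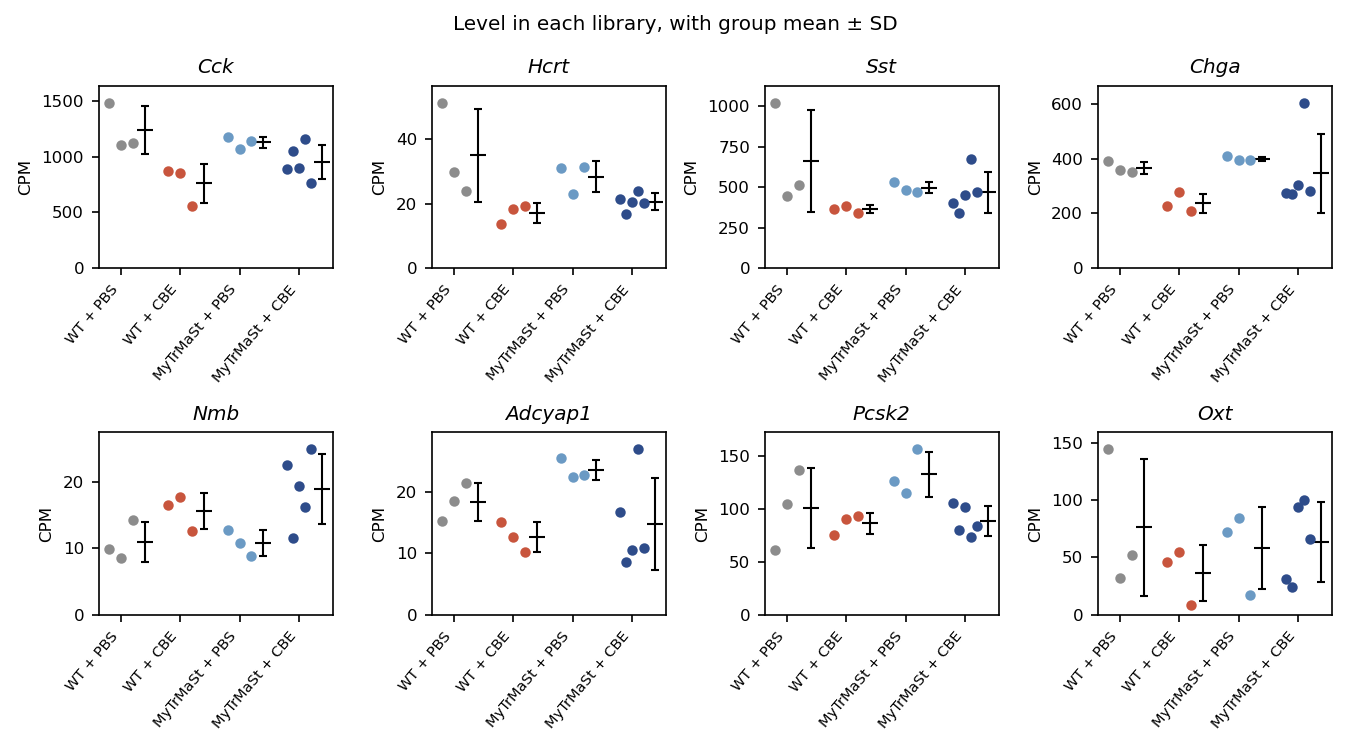
Level (CPM, linear axis from 0) of 8 members in each of the 14 libraries, by group, with the group mean ± SD as a bar to the right of the points. In Hcrt, Cck, Sst and Chga the 3 WT + CBE libraries lie below the 3 WT + PBS libraries, and 1 MyTrMaSt + CBE library stands above its group in Chga (606 CPM) and Adcyap1 (27.0 CPM).

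The second comparison, MyTrMaSt + CBE versus MyTrMaSt + PBS, asks the same without the 4 adaptors. No member passed with edgeR, at 2-fold (3.89% of all genes) or at an adjusted p of 0.05 alone (7.75% of all genes). An unadjusted p under 0.05 was found for 5 of the 30 (23.7% of all genes): Nmb, Vip and Scg5 were higher, and Adcyap1 and Pcsk2 lower (10.1% of all genes). At an adjusted p of 0.05 DESeq2 gave 1 member (Nmb, with 10% of all genes) and limma voom with sample weights gave 5 (Adcyap1, Chga, Nmb, Pcsk2 and Scg5, with 17.4% of all genes). The fitted change was below 0 for 13 of 30 members (49.4% of all genes), and the median log2 fold change was 0.12 over the members and 0.01 over all genes.

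Nmb, the precursor of the bombesin-like peptide neuromedin B, had the smallest p. Its level was 12.7, 10.8 and 8.78 CPM in MyTrMaSt + PBS and 22.5, 11.6, 19.4, 16.2 and 25.0 CPM in MyTrMaSt + CBE. All but 1 of the CBE libraries were above the PBS range, and the log2 fold change was 0.81 ± 0.25 (SE, edgeR adjusted p = 0.0591). Exons of Nmb and Sec11a overlap on the same strand in GENCODE M21, so reads of the pair may have been shared or dropped in counting.

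Adcyap1, the precursor of PACAP, was at 25.5, 22.4 and 22.8 CPM in MyTrMaSt + PBS and at 16.7, 8.61, 10.5, 27.0 and 10.9 CPM in MyTrMaSt + CBE. All CBE libraries except replicate 4 lay below the PBS libraries, and replicate 4 lay above them. The log2 fold change was -0.70 ± 0.27 (edgeR adjusted p = 0.130), and without replicate 4 it was -1.01 ± 0.22, which passed (edgeR adjusted p = 0.00952).

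Hcrt was at 31.0, 22.9 and 31.2 CPM in MyTrMaSt + PBS and at 21.4, 16.8, 20.6, 24.0 and 20.3 CPM in MyTrMaSt + CBE, and the groups overlapped through replicate 4. Its log2 fold change was -0.46 ± 0.22 (edgeR adjusted p = 0.214). Cck was at 1174, 1074 and 1138 CPM with PBS and at 893, 1049, 900, 1159 and 761 CPM with CBE, with replicate 4 again inside the PBS range (log2 fold change -0.24 ± 0.16, edgeR adjusted p = 0.388). Sst was at 533, 485 and 470 CPM with PBS and at 402, 341, 452, 672 and 472 CPM with CBE (log2 fold change -0.09 ± 0.23, edgeR adjusted p = 0.864). In each of these 3 genes replicate 4 held the highest value of its group.

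Among the granins, Chga was at 410, 397 and 395 CPM in MyTrMaSt + PBS and at 275, 271, 303 and 284 CPM in MyTrMaSt + CBE replicates 1, 2, 3 and 5. In replicate 4 it was at 606 CPM, above all other libraries. The log2 fold change was -0.21 ± 0.22 with all 5 libraries (edgeR adjusted p = 0.600) and -0.50 ± 0.12 without replicate 4 (edgeR adjusted p = 0.0194).

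Of the enzymes, Pcsk2 was at 126, 115 and 157 CPM with PBS and at 106, 80.1, 101, 73.1 and 83.5 CPM with CBE, and every CBE library was lower. Its log2 fold change was -0.58 ± 0.20 (edgeR adjusted p = 0.0850), which passed without WT + PBS replicate 1 (edgeR adjusted p = 0.00723). Antisense genes (Pcsk2os1 and Pcsk2os2) overlap exons of Pcsk2, and the use of strand in counting is not given in the sources used here. Pcsk1, a prohormone convertase whose promoter holds the element shown above, had only 6, 6, 8, 19 and 12 counts in the MyTrMaSt + CBE libraries, with a log2 fold change of -0.57 ± 0.41 (edgeR adjusted p = 0.430). Cpe did not differ beyond its error (log2 fold change -8.5e-05 ± 0.15). Groups of 4 members did not overlap (22.5% of all genes), with Tac2, Vip and Scg5 higher and Pcsk2 lower (10.7% of all genes).

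With both WT + PBS replicate 1 and MyTrMaSt + CBE replicate 4 left out, an alternative chosen after seeing the data, 4 members passed in WT: Cck (-0.53), Chga (-0.57) and Hcrt (-0.70) fell, and Tac2, the precursor of neurokinin B, rose (0.62). The edgeR adjusted p values ran from 0.00191 (Chga) to 0.0272 (Hcrt), and 15.3% of all genes passed. In MyTrMaSt 7 members passed, where 18.2% of all genes did. Adcyap1 (-0.997), Chga (-0.49), Hcrt (-0.50), Pcsk1 (-0.99) and Pcsk2 (-0.50) fell, and Nmb (0.87) and Scg5 (0.36) rose. Chga and Hcrt thus passed in both genotypes. The median log2 fold change over the members was -0.15 in WT and -0.13 in MyTrMaSt, and over all genes -0.002 and 0.01. The 2 libraries were chosen for standing apart over all genes or the members, so this does not count as a second test.

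**Figure D2:**
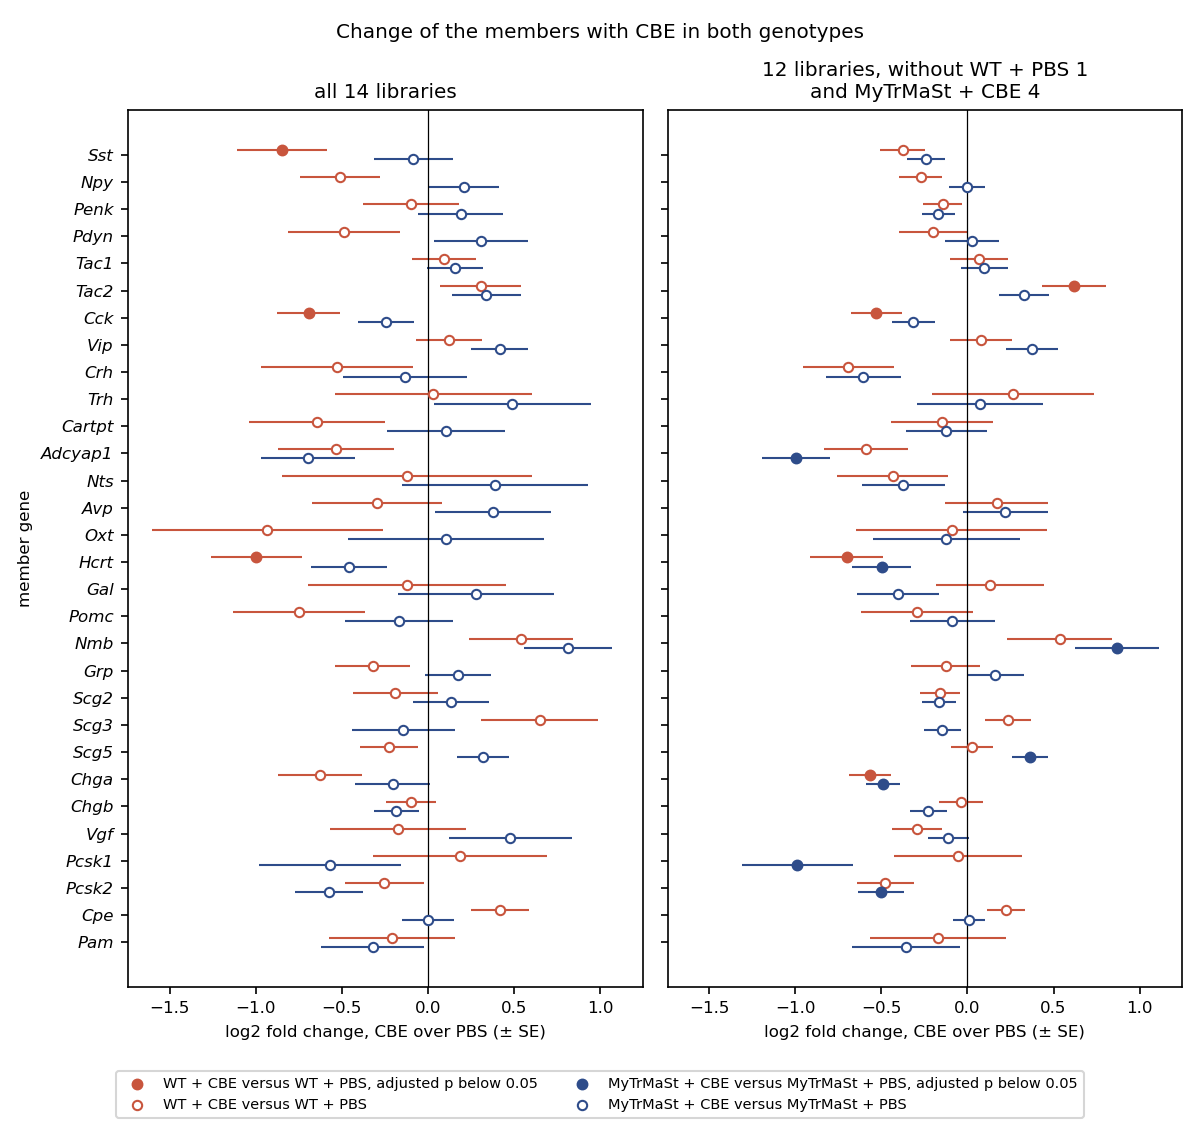
Log2 fold change (± SE) of each of the 30 members with CBE, WT in red and MyTrMaSt in blue, fitted with all 14 libraries (left) and without WT + PBS replicate 1 and MyTrMaSt + CBE replicate 4 (right). Filled points have an edgeR adjusted p below 0.05, which holds for 3 WT and 0 MyTrMaSt points on the left and for 4 and 7 on the right.

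Whether the response to CBE differed between the genotypes was asked with an interaction term, positive where MyTrMaSt changed upwards of WT. It was below 0 for 7 of the 30 members (50.1% of all genes), and its median was 0.41 on the log2 scale. None passed an adjusted p of 0.05 with edgeR (0.489% of all genes), DESeq2 or limma voom, and 3 had an unadjusted p under 0.05 with edgeR (12.5% of all genes). These were Sst (0.76 ± 0.35, edgeR adjusted p = 0.388), Npy (0.72 ± 0.31, edgeR adjusted p = 0.368) and Scg5 (0.55 ± 0.23, edgeR adjusted p = 0.350). Without both libraries the median was 0.04 over the members and -0.004 over all genes. The smaller number of members that passed in MyTrMaSt than in WT is therefore not shown to be a difference between the genotypes.

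In MyTrMaSt + PBS versus WT + PBS no member passed (edgeR, 0.186% of all genes), nor did any with DESeq2 or limma voom. None reached 2-fold with an adjusted p below 0.05 (0.16% of all genes). An unadjusted p under 0.05 was found for 3 (16.8% of all genes), and 5 members had groups that did not overlap (20.2% of all genes). Scg5, which encodes the chaperone of the convertase Pcsk2, was at 849, 530 and 559 CPM in WT + PBS and at 445, 485 and 402 CPM in MyTrMaSt + PBS (log2 fold change -0.54 ± 0.17, edgeR adjusted p = 0.156). Every null library was lower, and Scg5 passed, as the 1 member to do so, without WT + PBS replicate 2 (3.86% of all genes). Scg3 (0.74 ± 0.34) and Cpe (0.46) were the other two, and for both the lowest of all libraries was WT + PBS replicate 1. Xist was at 0 in all 3 WT + PBS libraries and at 11.01 to 12.1 CPM in all 3 MyTrMaSt + PBS libraries, so between these groups what moves with Xist and the genotype cannot be told apart. With the Xist level as a covariate, 0 members passed with edgeR (0.0169% of all genes). The median was 0.40 over the members and -0.02 over all genes, in place of 0.05 and 0.004. The slope of the covariate comes from the spread within groups. There Xist stood apart in WT + CBE replicate 2 (0.468 CPM) and MyTrMaSt + CBE replicate 4 (0 CPM). The slope thus rests largely on these 2 libraries, and replicate 4 also held many of the highest member levels. The fit is therefore no separate check.

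In MyTrMaSt + CBE versus WT + CBE no member passed either (edgeR, 2.54% of all genes, and 2.01% at 2-fold), with 0 by DESeq2 and limma voom and 2 at an unadjusted p under 0.05 (8.06% of all genes). Pdyn was at 30.4, 31.3 and 36.0 CPM in WT + CBE and at 42.7, 50.5, 45.2, 96.2 and 40.2 CPM in MyTrMaSt + CBE (log2 fold change 0.75 ± 0.29, edgeR adjusted p = 0.351). Pdyn was the 1 member whose groups did not overlap (9.96% of all genes), and the difference was 0.46 without the 2 libraries. The fitted difference was below 0 for 3 of the 30 members (46.6% of all genes), with a median of 0.31 over the members and 0.02 over all genes. Without the 2 libraries these medians were 0.09 and 0.004.

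MyTrMaSt + CBE replicate 4 held many of the highest levels. In this library 11 of the 30 members were at least 2-fold above the mean of the other 4 libraries of its group, where 2.7% of all genes were, and 0 were at least 2-fold below it, where 4.23% of all genes were. In all, 14 members had their highest level of all 14 libraries there (10.7% of all genes). The library shares its group label with the others, but its Xist level was 0, against 7.02 to 14.6 CPM in the other 4. Which of its genes were high was seen before they were counted.

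Among the precursors, Nts (neurotensin) was at 56.9 CPM in replicate 4 and at 10.5 to 13.2 CPM in the other 4 libraries. Gal, which encodes galanin, was at 68.7 against 13.1 to 19.5 CPM, and Crh, the corticotropin-releasing hormone, at 39.7 against 8.61 to 17.4 CPM. Penk, the enkephalin precursor, was at 1514 against 571 to 654 CPM, with 515 to 755 CPM in the 9 libraries of the other groups. Its log2 fold change with CBE was -0.10 ± 0.28 in WT and 0.19 ± 0.25 in MyTrMaSt, and without replicate 4 the latter was -0.18 ± 0.12 (edgeR adjusted p = 0.406). An antisense gene, A830012C17Rik, overlaps exons of Penk.

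Among the granins, Vgf, a nerve growth factor inducible member, was at 2023 CPM in replicate 4 and at 495 to 645 CPM in the other 4. Scg2 was at 1012 against 405 to 497 CPM and Chga at 606 against 271 to 303 CPM. Scg3 (369 against 315 to 376 CPM) lay inside the range of the others and Scg5 (505 against 515 to 645 CPM) just below it. Of the enzymes, Pcsk1 was at 9.32 against 2.25 to 4.68 CPM, while Cpe was 1.01 times the mean of the others. Pcsk2 (73.1 against 80.1 to 106 CPM) and the precursor Pomc (7.85 against 9.36 to 15.3 CPM) were below the others. The 5 members with the element TGACGTCA were 2.99 (Pcsk1), 2.20 (Scg2), 1.90 (Cartpt), 1.61 (Sst) and 1.19 (Chgb) times the mean of the other 4, where the members ran from 0.693 (Pomc) to 4.83 (Nts).

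**Figure D3:**
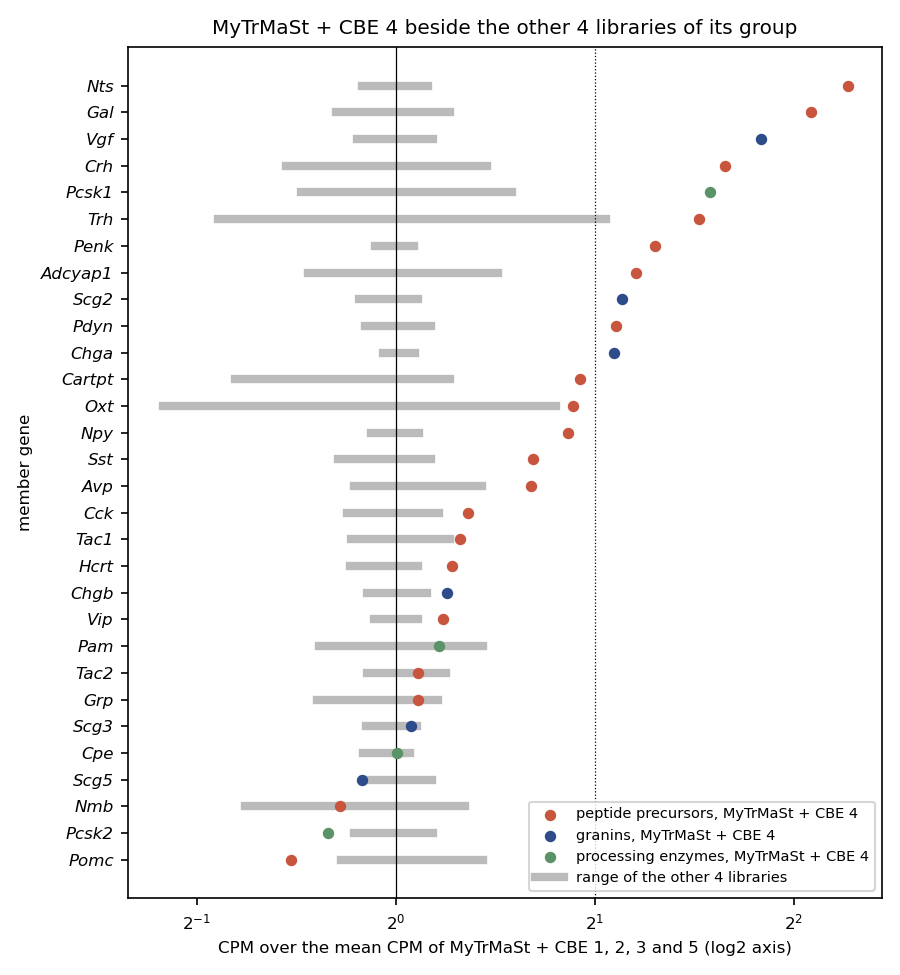
Level of each tested member in MyTrMaSt + CBE replicate 4 (points, coloured by role) and in the other 4 libraries of the group (grey bars, lowest to highest), each divided by the mean of those 4, on a log2 axis. The dotted line marks 2-fold, with 11 members at or above it, and Nts is highest at 4.83 times the mean.

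Genes induced by neuronal activity were then read in this library, from a list of 17 put together after the values of the members were seen. Of the 17, 5 had their highest level of all 14 libraries there (10.7% of all genes). Inhba, an activin subunit, was at 126 CPM against 4.04 to 10.1 CPM in the other 4, and Nptx2, a secreted synaptic pentraxin, at 260 against 13.6 to 40.1 CPM. Fosb was at 25.0 against 1.17 to 4.12 CPM, Bdnf at 14.7 against 3.88 to 6.36 CPM and Junb at 185 against 118 to 174 CPM. Fos (63.8 against 34.3 to 41.2 CPM), Arc (99.6 against 67.4 to 94.1 CPM) and Ier2 (45.6 against 27.5 to 30.4 CPM) were also highest of their group in replicate 4, but not of all 14 libraries. Of the 17 genes 4 were below the other 4 libraries, Npas4 (3.92 against 8.24 to 12.1 CPM), Egr1 (149 against 174 to 250.4 CPM), Egr4 (25.5 against 34.2 to 48.1 CPM) and Nr4a3 (10.3 against 10.9 to 14.1 CPM). Whether these genes and the members moved for the same reason was not tested.

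**Figure D4:**
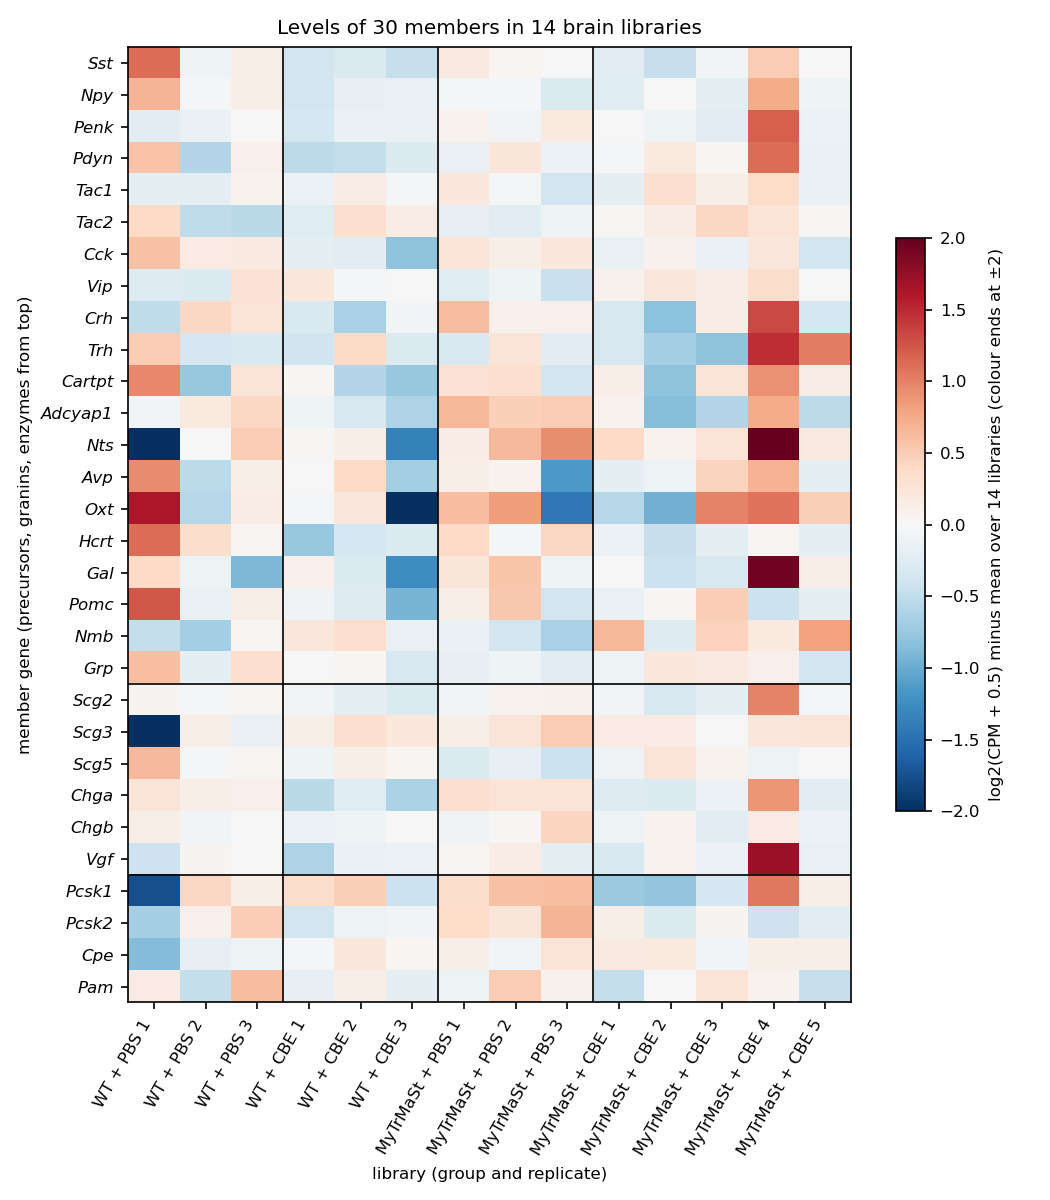
Level of each of the 30 tested members (rows) in each library (columns), as log2(CPM + 0.5) minus the mean of the 14 libraries, with the colour ending at ±2. WT + PBS replicate 1 and MyTrMaSt + CBE replicate 4 are the columns with most strong colours, and Oxt and Avp are low together in WT + CBE replicate 3 and MyTrMaSt + PBS replicate 3.

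The spread between libraries of a group was then compared among the members. A peptide made in a small nucleus may follow how much of that region is in the sample, which was not tested. The within-group SD on the log2 scale had a median of 0.38 over the 30 members and 0.33 over all genes, and without the 2 libraries 0.22 and 0.23. Oxt was the widest once they were left out, with an SD of 1.14 against a counting error of 0.16. Its level ran from 8.41 CPM (WT + CBE replicate 3) to 145 CPM (WT + PBS replicate 1). In the WT + CBE group Oxt was at 45.8, 55.2 and 8.41 CPM and in MyTrMaSt + PBS at 72.6, 84.3 and 17.2 CPM, so 1 library in each was far below the others. Avp, which lies next to Oxt on chromosome 2 (mm10, 130580620 to 130582554 and 130576173 to 130577054) and is made in the same hypothalamic nuclei, was also lowest in those libraries, at 52.2 and 37.9 CPM. The fold changes of Oxt with CBE (-0.93 ± 0.67 in WT and 0.10 ± 0.57 in MyTrMaSt) were smaller than 2 times their SE and did not pass (edgeR adjusted p = 0.433 and 0.938). In WT the value for Oxt ran from -1.33 to -0.11 on leaving out 1 library at a time, and was -0.11 without WT + PBS replicate 1.

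The other wide precursors were Trh (within-group SD 0.60 without the 2 libraries, counting error 0.35), Avp (0.52), Nts (0.50, counting error 0.47) and Cartpt (0.49). Trh, the thyrotropin-releasing hormone precursor, was at 5.83, 4.49, 4.04, 21.6 and 15.6 CPM in MyTrMaSt + CBE. Penk (0.11), Scg2 (0.11), Chga (0.11), Npy (0.12), Scg5 (0.12) and Cpe (0.12) were the narrowest. Hcrt, also made by a small group of hypothalamic neurons, was not wide (0.22, counting error 0.20, with a median of 0.23 over all genes). Of 11 hypothalamic markers, 3 are listed and none passed the filter on low counts (0 to 18 counts per gene and library), so they could not rank the libraries by how much hypothalamus each held. None of 7 pituitary markers is listed. The summed choroid plexus markers, led by Ttr, ran from 1255 to 4230 CPM and were highest in MyTrMaSt + PBS replicate 3, where Oxt and Avp were low, and next highest in WT + PBS replicate 1 (3373 CPM), where both were the highest of all libraries. In WT + CBE replicate 3, where both were low, the sum was 1697 CPM. Their part in the spread of Oxt and Avp was not tested.

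**Figure D5:**
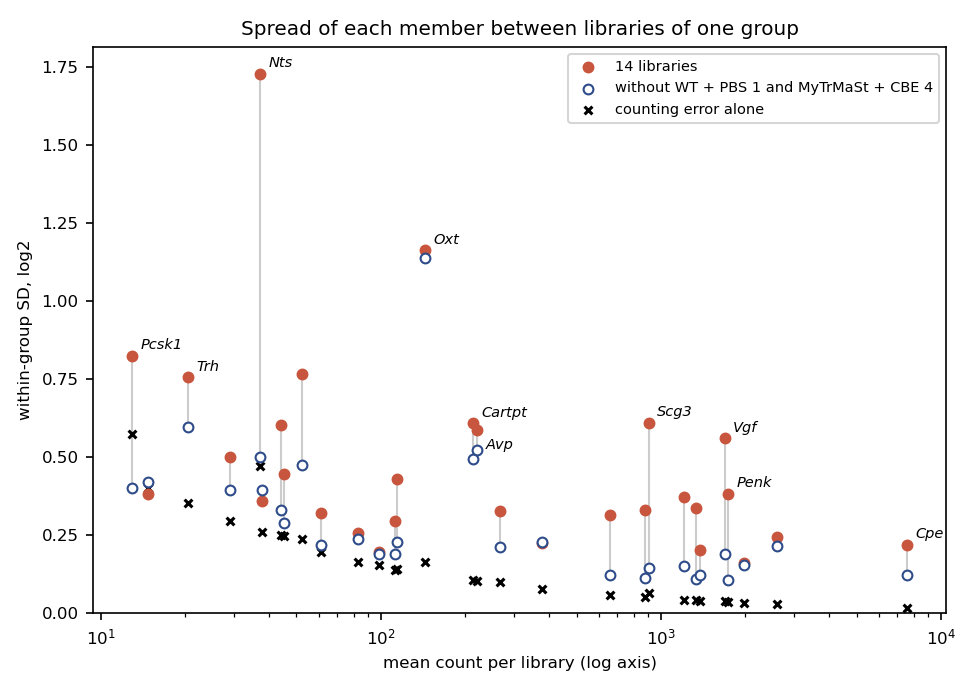
Within-group SD of each member on the log2 scale against its mean count per library (log axis), with all 14 libraries (red), without the 2 libraries that stand apart (open blue) and from counting error alone (crosses). Most members fall on leaving the 2 out, Nts from 1.73 to 0.50, while Oxt stays at 1.14.

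Other genes of peptide signalling were read from lists by role. Of 19 receptors tested, 3 passed in WT and all 3 fell, where 3.89% of all genes fell and 10.6% passed in either direction: Sstr1, a somatostatin receptor (-0.86 ± 0.23, edgeR adjusted p = 0.0226), Crhr1, a receptor of corticotropin-releasing hormone (-0.86 ± 0.25, edgeR adjusted p = 0.0357), and Cckbr, a cholecystokinin receptor (-0.78 ± 0.23, edgeR adjusted p = 0.0377). Sstr1 was at 32.4, 39.4 and 39.5 CPM in WT + PBS and at 18.0, 22.5 and 22.2 CPM in WT + CBE. It was the receptor that passed in MyTrMaSt as well, with 44.1, 46.3 and 48.4 CPM for PBS and 37.3, 19.8, 29.1, 19.6 and 28.5 CPM for CBE (-0.78 ± 0.19, edgeR adjusted p = 0.0157). Neither pair of groups overlapped for Sstr1. Between the CBE groups 1 receptor passed, the neurotensin receptor Ntsr2, which was higher in MyTrMaSt (0.95 ± 0.18, edgeR adjusted p = 0.00445, with 2.54% of all genes passing).

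Of 13 genes of vesicle formation and release, Syt7, a calcium sensor of slow release, fell in WT from 50.5 to 58.4 CPM in the PBS libraries to 19.6 to 27.6 CPM in the CBE libraries (-1.24 ± 0.21, edgeR adjusted p = 0.000536). In MyTrMaSt its change was -0.36 ± 0.17 (edgeR adjusted p = 0.214), and the interaction did not pass (0.88 ± 0.27, edgeR adjusted p = 0.217). Between the CBE groups Syt7 was higher in MyTrMaSt (0.78 ± 0.19, edgeR adjusted p = 0.0345). Of 6 peptidases tested, Thop1 fell in WT (-1.19 ± 0.37, edgeR adjusted p = 0.0472), where WT + PBS replicate 1 was at 70.2 CPM and the other two at 25.9 and 23.1 CPM. None of 6 further processing enzymes and none of 9 further precursors passed with edgeR in either genotype (10.6% of all genes in WT and 7.75% in MyTrMaSt). At an unadjusted p under 0.05 there were 0 and 0 in WT (24.7% of all genes) and 2 and 1 in MyTrMaSt (23.7% of all genes).

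Pan-neuronal markers and markers of neuron types were read beside the members. The 8 pan-neuronal markers summed to 8257 to 8403 CPM in WT + PBS and 5912 to 6239 CPM in WT + CBE, with 7827 to 8919 CPM in the null mice given PBS and 6108 to 7344 CPM in those given CBE. In WT 3 of the 8 passed (Tubb3, Eno2 and Uchl1), all lower, and in MyTrMaSt 1 (Snap25), lower. Of markers of neuron types, 1 of 10 GABAergic markers (Calb2) fell in WT, against 3.89% of all genes, and 0 of 7 striatal markers passed. WT + PBS replicate 1 was the highest of all libraries in Calb2 (779 CPM, with 513 and 429 CPM in the other two). In MyTrMaSt 1 of 7 striatal markers rose and 0 of 10 GABAergic markers passed, against 7.75% of all genes in either direction. Of 6 microglial markers 4 rose in each genotype, of 6 astrocyte markers 3 rose in each, and of 6 oligodendrocyte markers 4 fell in WT. In either direction 10.6% of all genes passed in WT and 7.75% in MyTrMaSt. In bulk tissue, fewer neurons of a type and less RNA per neuron cannot be told apart, and the part of cell composition in the changes of Hcrt, Cck and Sst was not tested. Xist also moved with the treatment in WT. With the Xist level as a covariate, 0 members passed in WT (5.45% of all genes), and 2 passed in MyTrMaSt, Adcyap1 and Chga, both lower (6.07% of all genes). The median of the members was then 0.20 in WT in place of -0.22 and -0.12 in MyTrMaSt in place of 0.12. In the interaction it was -0.20 in place of 0.41. Over all genes these medians with the covariate were -0.03, 0.003 and 0.006. The slope rests largely on 2 libraries, among them MyTrMaSt + CBE replicate 4, so the fit is no separate check of the calls.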

How the data were processed

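Bulk MARSseq libraries of brain RNA from 14 mice were sequenced on an Illumina NextSeq instrument, and the authors mapped the reads to mm10 with hisat 0.1.6 and kept unique mappers. The submitters' processing notes also name cutadapt and HTSeq. The deposited values are raw counts per gene, and the use of strand, of molecular identifiers and the annotation are not given in the sources used here. A normalized signal and the authors' fold changes and p values were deposited as well and were not used.

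Differences were tested on the counts with edgeR 4.0.16 in R 4.3.3 (filterByExpr, TMM, quasi-likelihood F test, 1 model with 4 group means over 14 libraries), with Benjamini-Hochberg adjustment over 11852 genes. A gene passed where its adjusted p was below 0.05, and calls at 2-fold also needed a fold of 2 or more. Libraries are labelled as separate mice, and intervals and SEs do not separate technical spread. Counting error alone was 0.02 to 0.57 on the log2 scale. Alternatives were RLE factors, DESeq2 1.42.0, limma 3.58.1 voom with sample weights, other filters, the Xist level, a replicate block, only the groups compared and leaving out each library, plus 1 added after seeing the data.

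Members and lists were chosen with earlier results of these data known. Members named by rule are those with an adjusted p below 0.05, the 5 largest changes in each CBE comparison and the highest level of each role. Their levels are given per library or as ranges, for some members in only part of the groups. Other members were named after their values were seen. Counts over the cortical excitatory markers are not reported here.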

Additional observations from a re-analysis of the deposited data

Results flagged for a closer look

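In MyTrMaSt + CBE, the group with 5 libraries, the gap between the most extreme library and its nearest neighbour was divided by the range of the group and compared with Dixon's critical value of 0.71. Of the 30 members 9 were past it, each with replicate 4 as the highest library. Of all 11852 genes, 3.33% were past it with replicate 4 the highest. Chance flags about 1 in 20 groups, but that rate holds for independent levels, and these come from 1 library. For the 9 members the ratio was 0.941 for Nts, 0.912 for Penk, 0.904 for Chga, 0.902 for Vgf, 0.885 for Gal, 0.850 for Scg2, 0.815 for Npy, 0.815 for Pdyn and 0.719 for Crh. For the summed level of all precursors it was 0.910 and for that of the granins 0.891. The sums hold the same members and add no separate evidence. For 4 genes induced by neuronal activity, which were picked because they were high in replicate 4 and to which no chance rate applies, it was 0.950 for Inhba, 0.892 for Nptx2, 0.876 for Fosb and 0.771 for Bdnf. The other groups have 3 libraries each and were not tested in this way.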

How the results depend on the processing

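The Hcrt, Cck and Sst calls in WT were lost with only the libraries of the groups compared and with the Xist covariate (log2 fold changes of -0.99, -0.68 and -0.83 with the former, about those reported, and of -0.77, -0.43 and -0.39 with the latter). The Sst call was also lost with limma voom (-0.43), a minimum of 10 counts (-0.74, edgeR adjusted p = 0.0668), the replicate block (-0.79, edgeR adjusted p = 0.0538) and without both libraries that stand apart (-0.38, edgeR adjusted p = 0.0550). In MyTrMaSt, where none had passed, 2 members passed with only the groups compared (Nmb and Pcsk2, 15.1% of all genes) and 2 with the Xist covariate (Adcyap1 and Chga, 6.07%). With no fold threshold 3 members passed in WT, and the other settings ran from 0 to 4. Limma voom gave 4 (16.9% of all genes), and leaving out any 1 WT + CBE library gave 1 (6.24% to 7.11% of all genes). At 2-fold, DESeq2 and the replicate block gave 1 each (Hcrt, with 6.78% and 5.8% of all genes), and leaving out 1 library gave 0 to 2 in WT (Hcrt and Sst without WT + PBS replicate 2, Hcrt without WT + PBS or WT + CBE replicate 3, with 5.07% to 7.43% of all genes) and 0 to 1 in MyTrMaSt (Adcyap1 without MyTrMaSt + CBE replicate 4, with 3.47% of all genes). The labels do not say that the replicate numbers pair mice. Same-numbered libraries of 2 groups correlated at -0.17 to 0.17 over 18 pairs, and 7 of 12 libraries correlated best with their own number. No chance rate was worked out for this, and it cannot exclude a pairing or a batch. Under the block 3 members passed at an adjusted p of 0.05 in WT (Cck, Chga and Hcrt, 8.5% of all genes) and 1 in MyTrMaSt (Adcyap1, 3.18%). Counts at 2-fold were 0 in the other settings that were run.

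With the Xist covariate the median of the members changed sign in WT, in MyTrMaSt and in the interaction, as given above. Over all genes the medians were then -0.03, 0.003 and 0.006. The signs that turned are given next for the 12 members named by the rule alone, and none of these changes had passed. With the Xist covariate, MyTrMaSt + PBS versus WT + PBS gave 0.21 for Cck, 0.045 for Hcrt, 0.15 for Sst, 0.80 for Oxt and 0.022 for Nmb, CBE gave -0.19 for Oxt in MyTrMaSt and 0.20 for Adcyap1 and 0.019 for Chgb in WT, and the interaction -0.090 for Oxt and -1.22 for Trh. Without both libraries that stand apart, the PBS groups gave 0.013 for Cck, 0.043 for Hcrt, 0.046 for Sst, 0.51 for Oxt and 0.19 for Pomc, CBE gave -0.12 for Oxt and 0.0095 for Cpe in MyTrMaSt and -0.056 for Pcsk1 in WT, the interaction -0.031 for Oxt and -0.19 for Trh, and the CBE groups -0.17 for Adcyap1 and -0.020 for Chgb. Limma voom gave 0.021 for Sst, 0.55 for Oxt, 0.25 for Pomc and 0.036 for Nmb between the PBS groups, -0.22 for Oxt and 0.044 for Cpe with CBE in MyTrMaSt, -0.031 for Pcsk1 in WT, -0.098 for Adcyap1 between the CBE groups and -0.17 for Trh in the interaction. The replicate block gave -0.022 for Oxt, 0.015 for Pomc and -0.56 for Trh with CBE in MyTrMaSt, -0.11 for Adcyap1 and -0.53 for Trh between the CBE groups and -0.58 for Trh in the interaction. A minimum of 10 counts gave 0.035 for Nmb between the PBS groups, DESeq2 -0.018 and -0.024 for Trh in WT and between the PBS groups, and Cpe with CBE in MyTrMaSt was 0.0012 with no filter and 0.0046 with only the groups compared. The cause was not tested.

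Leaving out 1 library at a time turned further signs. Between the PBS groups the ranges were -0.21 to 0.013 for Cck, -0.46 to 0.048 for Hcrt, -0.63 to 0.046 for Sst, -0.71 to 0.50 for Oxt, -0.55 to 0.18 for Pomc, -0.22 to 0.26 for Nmb, -0.18 to 0.28 for Trh and -0.040 to 0.22 for Chgb. With CBE in MyTrMaSt they were -0.25 to 0.0098 for Sst, -0.31 to 0.49 for Oxt, -0.37 to 0.11 for Pomc and -0.073 to 0.090 for Cpe, and in WT -0.48 to 0.020 for Pcsk2, -0.058 to 0.60 for Pcsk1 and -0.26 to 0.27 for Trh. Between the CBE groups they were -0.15 to 0.32 for Adcyap1, -0.058 to 0.11 for Pcsk2, -0.012 to 0.088 for Chgb and -0.021 to 0.11 for Cpe, and in the interaction -0.18 to 0.079 for Chgb. Counting error was largest for Pcsk1 (0.57 on the log2 scale), Nts (0.47), Pam (0.40) and Trh (0.35).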
